A study of Mus musculus with 6 samples.

Results

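*Trp53*, the gene of the mouse p53 protein, and 9 genes that control p53 or are switched on by it were followed in D4 embryoid bodies (EBs) of 2 CRISPR-Cas9-edited mESC lines. The 10 genes are *Trp53*, *Mdm2*, *Mdm4*, *Cdkn1a*, *Bax*, *Bbc3*, *Ccng1*, *Sesn2*, *Trp53inp1* and *Phlda3*. They were taken by symbol from the 15266 genes of the count table, to look for a lasting damage response in clones made with Cas9, and all 10 were listed and passed the filter on low counts. EBs are suspended aggregates of differentiating embryonic stem cells that go through a programme like that of gastrulation. Both lines were made from W9.5 mESCs, kept in LIF, and differentiated in serum without LIF. The EVX1-Δfs line (Evx1Δfs Clone 14 in the labels) is 1 clone with small frameshift deletions in both alleles of *Evx1*, a homeobox gene, with the antisense gene *Evx1as* left in place. The Del#3 line (Del3, Evx1/Evx1asΔ2.6kb) lacks a 2.6 kb stretch that holds the start of both genes. Each line gave 3 mRNA-seq libraries from 3 side by side differentiations, each set up on its own day. The replicate numbers in the labels were read as marking these differentiations, which the labels do not state. Both lines carry a Cas9 edit and an unedited line was not analysed here, so a response that both lines share cannot be seen in these comparisons.

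p53 is a transcription factor that is kept scarce by the ubiquitin ligase MDM2 and its partner MDM4, and it is stabilised when DNA is broken. It then turns on genes that stop the cell cycle, such as *Cdkn1a*, and genes that start apoptosis, such as *Bax* and *Bbc3*, as well as *Mdm2* itself. Mouse embryonic stem cells are known to make much *Trp53* mRNA. Pluripotent stem cells are also known to respond to a Cas9 break through p53, a response that normally fades once the break is repaired.

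The 3 guides that made the lines are shown because each is the site of a Cas9 break, with the PAM, the 3 bases that Cas9 needs beside its target, in capitals:
EVX1-Δfs guide: ccagatgcgccgataccgcaCGG
Del#3 guide 1: cacacctggtactggcatacTGG
Del#3 guide 2: tcattagaacacgccgtttgTGG
All 3 match the plus strand of chromosome 6 of NCBIM37, the build known as mm9. The EVX1-Δfs guide lies at bases 52265847 to 52265866 and its predicted cut falls in a coding exon of *Evx1*. Del#3 guide 1 lies at bases 52265302 to 52265321 and cuts in an intron of *Evx1*. Del#3 guide 2 lies at bases 52262639 to 52262658 and cuts in an exon of *Evx1as*, and the predicted Del#3 cuts are 2663 bases apart. None of the 10 genes is on chromosome 6.

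p53 binds pairs of a decamer, and an element of 2 such decamers with no spacer was searched for within 3000 bases on each side of the outermost annotated start of every protein-coding gene. The p53 decamer consensus was used, with at most 2 mismatches in the 20 bases and with the C and the G of each decamer's centre kept. The element reads the same on both strands, so 1 pass covers both. Such a match was found for 3 of the 10 genes, and for 5.95% of 22031 protein-coding genes. With at most 1 mismatch these were 2 of the 10 genes and 0.967% of all. The 4 matches are shown because they are the stretches near these genes that read most like the p53 element. They are written on the strand of the gene, with the centre of each decamer in capitals:
Cdkn1a: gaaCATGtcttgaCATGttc
Ccng1, upstream: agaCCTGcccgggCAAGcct
Ccng1, intron: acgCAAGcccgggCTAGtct
Bax: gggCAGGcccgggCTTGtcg
The *Cdkn1a* match is at chr17:29227873-29227892, 51 bases upstream of the outermost annotated start and 2844 bases upstream of the next coding start, and it has 1 mismatch. The *Ccng1* matches are at chr11:40568964-40568983, 170 bases upstream of the start, and at chr11:40568438-40568457, in an intron 356 bases downstream, each with 1 mismatch. The *Bax* match is at chr7:52721944-52721963, in a non-coding part of an exon 305 bases downstream of the outermost start, with 2 mismatches. For the other 7 genes no stretch of this window met these letters, which says nothing about p53 itself.

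The recovered reads on listed genes numbered from 9024579 to 15699124 per library. The replicate 1 libraries were the deepest, with 15699124 reads in EVX1-Δfs and 12231851 in Del#3, and the others had at most 9802928. Differences of replicate 1 from the other replicates therefore cannot be told apart from differences of depth. Counts are given as deposited, after division by a size factor for each library, and are called normalized counts. *Evx1* had 2582 to 4023 reads in the EVX1-Δfs libraries and 28 to 48 in the Del#3 libraries, and *Evx1as* had 571 to 879 and 21 to 30. Both genes follow the labels. The *Evx1* count does not show the frameshift. *Pou5f1* of the epiblast (4444 to 7890 normalized counts), *T* of the primitive streak (881 to 1346) and *Sox17* of the endoderm (518 to 800) were present in every library. Of the other definitive and visceral endoderm genes followed, *Cer1* (1448 to 2580) and *Foxa2* (432 to 920) were present in every library too. *Afp* (1.16 to 4.27), *Apoa1* (5.34 to 106) and *Ttr* (22.45 to 69.34) were low. Of the neural markers *Sox1* and *Pax6* had at most 10.7, while *Tubb3* had 223 to 389. The early blood gene *Hba-x* differed between replicate numbers (53.9 to 355 normalized counts, limma F test, adjusted p = 0.024), while *Hbb-bh1* (401 to 764, adjusted p = 0.090) and *Gata1* (104 to 207, adjusted p = 0.36) did not pass that test.

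Between the lines, *Trp53* and its 9 genes showed no difference that passed the test. The test was limma on log2(normalized count + 1), its variance prior following the mean level, with Benjamini-Hochberg adjustment over 12891 genes and a threshold of 0.05. It called 0 of the 10 genes, beside 0.0155% of all genes tested, and 0 of the 10 had an unadjusted p under 0.05, beside 1.03% of all. The 2 genes called of all tested were *Evx1* and *Evx1as*. With edgeR and with DESeq2 on the recovered reads 0 of the 10 were called as well, beside 2 and 3 of all genes. Blocked by replicate number, limma called 0 of the 10 (0.0233% of all), and 1 of the 10, *Trp53inp1*, had an unadjusted p under 0.05 (4.62% of all). A p that misses the threshold does not show that the lines are alike, so the 95% interval of each difference is given below. For 8 of the 10 genes this interval stayed inside a 2-fold rise or fall, beside 61.1% of all genes tested. With the block they did so for 9 of the 10, beside 76.2% of all. The median log2 fold change of the 10 genes was 0.03, and that of all genes tested was 0.0022. Nothing in the labels says whether the EBs of 1 line on different days came from separately thawed cells, and the p-values measure the spread between these libraries. EBs hold many cell types, and a change in the number of cells of a type cannot be told apart from a change in RNA per cell.

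*Trp53* itself (chromosome 11, bases 69393861 to 69405375, plus strand) had 2901, 2877 and 2009 normalized counts in the EVX1-Δfs libraries, in replicate order, against 2783, 3036 and 2843 in those of Del#3. Of the 6 libraries 5 were close together, and EVX1-Δfs replicate 3 was the low one. EVX1-Δfs had a mean of 2596 ± 509 (SD, n = 3), against 2888 ± 132 (SD, n = 3) for Del#3. Del#3 over EVX1-Δfs gave a log2 fold change of 0.17 (SE 0.23, 95% interval -0.34 to 0.68), with an adjusted p of 1. Without the low library the log2 fold change was -0.00185. The p53 protein is controlled mainly by its stability, so its mRNA level does not report on its activity. A *Trp53* pseudogene is in the annotation, so reads from stretches that they share are uncertain.

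The brakes on p53 came next. *Mdm2* (chromosome 10, bases 117125944 to 117147814, minus strand) encodes the ligase that sends p53 to the proteasome, and it is itself a p53 target. *Mdm2* had 409, 233 and 281 normalized counts in the EVX1-Δfs libraries, in replicate order, against 442, 202 and 319 in those of Del#3. In both lines replicate 1 was highest and replicate 2 was lowest, so that the lines overlapped widely. Its log2 fold change between the lines was 0.03 (SE 0.34, 95% interval -0.73 to 0.79). With the block the interval narrowed to -0.40 to 0.46.

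*Mdm4* (chromosome 1, bases 134886422 to 134921943, minus strand) encodes the MDM2 relative that masks the activation domain of p53. It had 212, 51.6 and 57.9 normalized counts in the EVX1-Δfs libraries, in replicate order, against 222, 40.6 and 127 in those of Del#3. The replicate 1 libraries of both lines stood far above the others, and the 6 libraries spanned 5.45-fold, the widest span of the 10 genes. Its log2 fold change between the lines was 0.28 (SE 0.66, 95% interval -1.18 to 1.74), so a change of over 2-fold in either direction is not excluded by these libraries. With the block the interval was -0.43 to 0.99. An *Mdm4* pseudogene is annotated too.

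Among the targets, *Cdkn1a* (chromosome 17, bases 29227924 to 29237667, plus strand) encodes p21, the inhibitor of cyclin-dependent kinases through which p53 halts the cycle. Its normalized counts were 370.3, 368 and 309.6 in the EVX1-Δfs libraries, in replicate order, against 318, 354 and 264 in those of Del#3. It varied little, by 1.40-fold over the 6 libraries. Each Del#3 library was below the EVX1-Δfs library of its own number, by 0.06 to 0.23 on the log2 scale, while the ranges of the lines overlapped. The log2 fold change was -0.17 (SE 0.25, 95% interval -0.72 to 0.38), which is a level in Del#3 between 0.608 and 1.303 times that in EVX1-Δfs. With the block the interval was -0.57 to 0.24.

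*Ccng1* (chromosome 11, bases 40562054 to 40568813, minus strand) encodes cyclin G1, a p53 target that feeds back on MDM2. It had 1319, 500.4 and 1107 normalized counts in the EVX1-Δfs libraries, in replicate order, against 1190, 766 and 838 in those of Del#3. Replicate 1 was again the highest in both lines and replicate 2 the lowest. Between the lines its log2 fold change was 0.02 (SE 0.36, 95% interval -0.77 to 0.82). Its sign was not stable, being negative with edgeR (-0.04) and with DESeq2 (-0.07).

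Of the apoptosis genes, *Bax* (chromosome 7, bases 52717065 to 52722268, minus strand) encodes a protein that opens the outer membrane of the mitochondrion. *Bax* had 1979, 3400 and 3715 normalized counts in the EVX1-Δfs libraries, in replicate order, against 1740, 3921 and 3225 in those of Del#3. Here replicate 1 was the low one in both lines. Del#3 differed from EVX1-Δfs by a log2 fold change of -0.06 (SE 0.35, 95% interval -0.83 to 0.70), and with the block the interval was -0.45 to 0.33.

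*Bbc3* (chromosome 7, bases 16894965 to 16903554, plus strand) encodes PUMA, a BH3-only protein that frees BAX from its inhibitors. Its normalized counts were 341, 633 and 535 in the EVX1-Δfs libraries, in replicate order, against 380.2, 539.9 and 559.6 in those of Del#3. Replicate 1 was low in both lines, as for *Bax*. The log2 fold change was -0.0021 (SE 0.30, 95% interval -0.66 to 0.65), and its sign changed with TMM factors (0.01), total-read scaling (0.03) and the replicate block in edgeR (0.02).

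*Trp53inp1* (chromosome 4, bases 11083578 to 11101526, plus strand) encodes a stress protein that takes part in p53-dependent cell death and in autophagy. It had 375, 174 and 477 normalized counts in the EVX1-Δfs libraries, in replicate order, against 746, 570.1 and 410.1 in those of Del#3. Del#3 was above EVX1-Δfs in replicates 1 and 2, by 0.99 and 1.71 on the log2 scale, and 0.22 below it in replicate 3. The log2 fold change was 0.83 (SE 0.38, 95% interval -0.02 to 1.68), the largest of the 10 genes in size. The value was 0.401 without EVX1-Δfs replicate 2, 1.13 without EVX1-Δfs replicate 3, and 0.333 with the replicate block and a correction for GC content and exon length. Its unadjusted p was 0.055, or 0.032 with the block, and its adjusted p was 1, or 0.99 with the block. It is the gene of the group with the lowest GC content, 38.6%.

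Of the remaining targets, *Sesn2* (chromosome 4, bases 132047947 to 132066416, minus strand) encodes sestrin 2, which restrains mTORC1 under stress. It had 471, 730.1 and 536 normalized counts in the EVX1-Δfs libraries, in replicate order, against 377, 915 and 728 in those of Del#3. Replicate 1 was lowest and replicate 2 highest in both lines. The lines differed by a log2 fold change of 0.15 (SE 0.34, 95% interval -0.61 to 0.90).

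*Phlda3* (chromosome 1, bases 137662696 to 137665713, plus strand) encodes a small PH-domain protein that holds back AKT. *Phlda3* had 458, 509.8 and 494 normalized counts in the EVX1-Δfs libraries, in replicate order, against 371, 474 and 419 in those of Del#3. It was the steadiest of the 10 genes, spanning 1.37-fold, and each Del#3 library lay below the EVX1-Δfs library of its number. The log2 fold change was -0.22 (SE 0.23, 95% interval -0.73 to 0.30), and with the block the interval was -0.60 to 0.17.

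**Figure D1:**
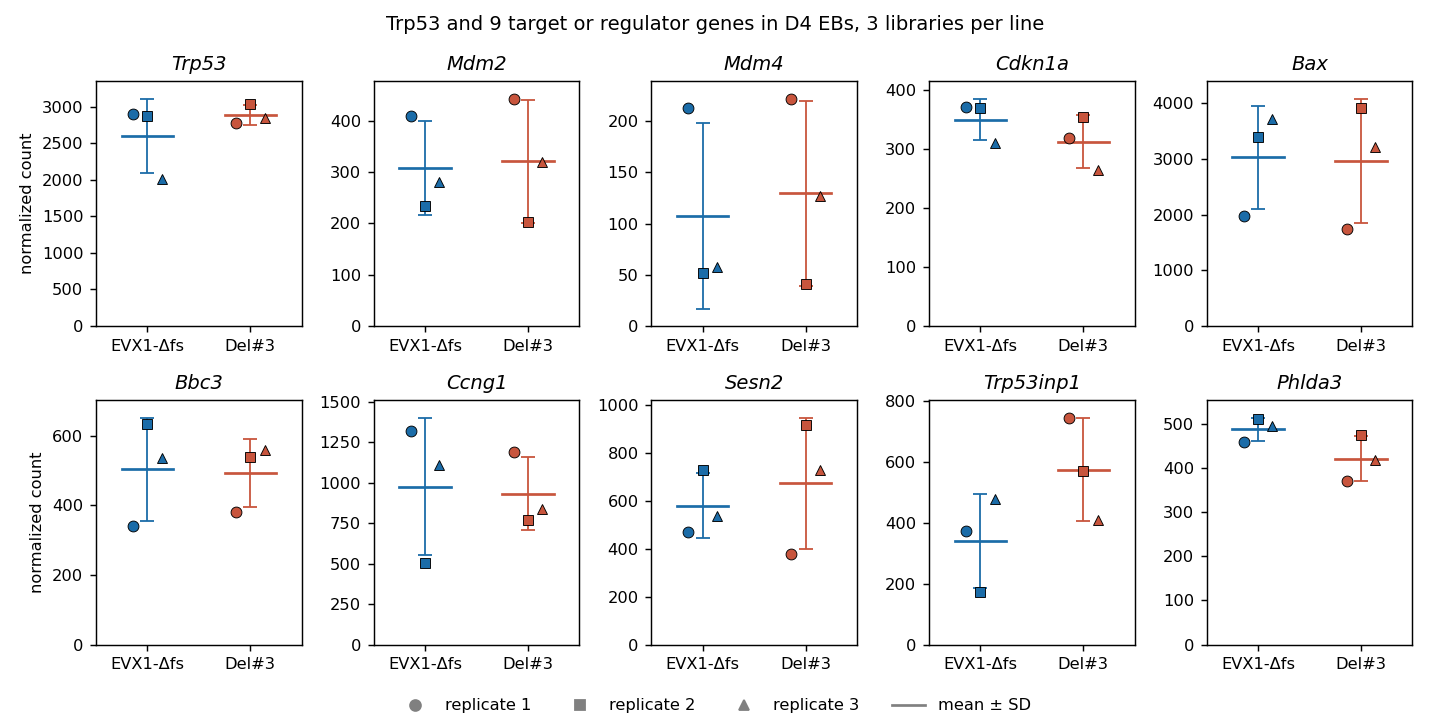
Normalized counts (linear axis from 0) of *Trp53* and the 9 other genes in each of the 6 libraries. Symbols mark replicates 1 to 3, horizontal lines the mean and bars the SD of 3 libraries. The lines overlap for all 10 genes, and replicate 1 stands apart in both lines for *Mdm4* (high) and *Bax* (low).

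The lines overlapped for every one of the 10 genes: 0 of 10 had all libraries of 1 line above all of the other, beside 3.51% of all genes tested. Two-sided exact permutation tests of single genes gave p from 0.2 to 1, and 3 libraries against 3 cannot give a p below 0.1. *Cdkn1a* and *Phlda3* were lower in Del#3 in 3 of 3 pairs of the same number. That is 2 of the 10 genes with the same direction in every pair, beside 23.1% of all genes.

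**Figure D2:**
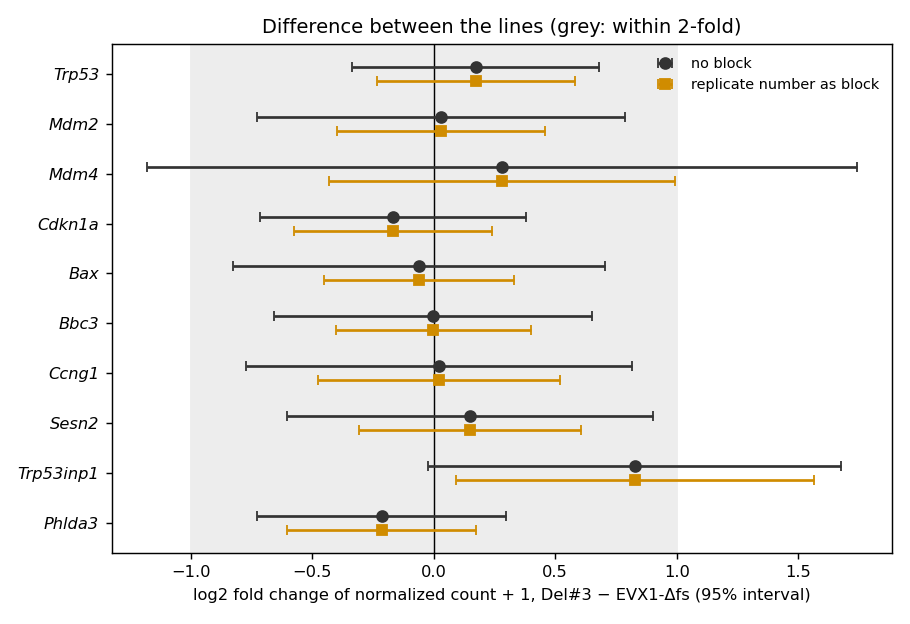
Log2 fold change of normalized count + 1, Del#3 minus EVX1-Δfs, with its 95% interval without (circles) and with (squares) the replicate number as a block, for 3 libraries per line. The grey band is a change of less than 2-fold. All intervals without the block include 0, and with the block that of *Trp53inp1* (0.09 to 1.57) does not.

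Levels of different genes can be compared only per length, and were set on the RPKM scale, the reads of a gene scaled to its exon length and to the library's reads on listed genes. On that scale *Bax* was highest, at a mean of 208.5 over the 6 libraries (133 to 259), above *Trp53* at 64.1 (44.0 to 70.6). The ranges of these genes did not overlap each other or that of *Phlda3* at 27.4 (24.4 to 30.9). *Ccng1* (25.8), *Bbc3* (23.3), *Sesn2* (16.9) and *Cdkn1a* (14.0) followed, each overlapping its neighbour in the order. *Trp53inp1* (6.72) overlapped *Cdkn1a* only at its highest library (11.8 against 11.3). The brakes had the lowest means over the 6 libraries, with *Mdm2* at 5.93 (3.53 to 8.95) and *Mdm4* at 3.28 (1.02 to 6.47), and their ranges overlapped. The range of *Trp53inp1* (2.53 to 11.8) takes in that of *Mdm2*, and in EVX1-Δfs alone its mean (4.88) was below that of *Mdm2* (5.68). *Trp53* mRNA was thus at the percentile 93.1 of the 14262 listed genes with 1 annotated model, and *Mdm4* at the percentile 44.4. This scale does not correct for GC content.

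**Figure D3:**
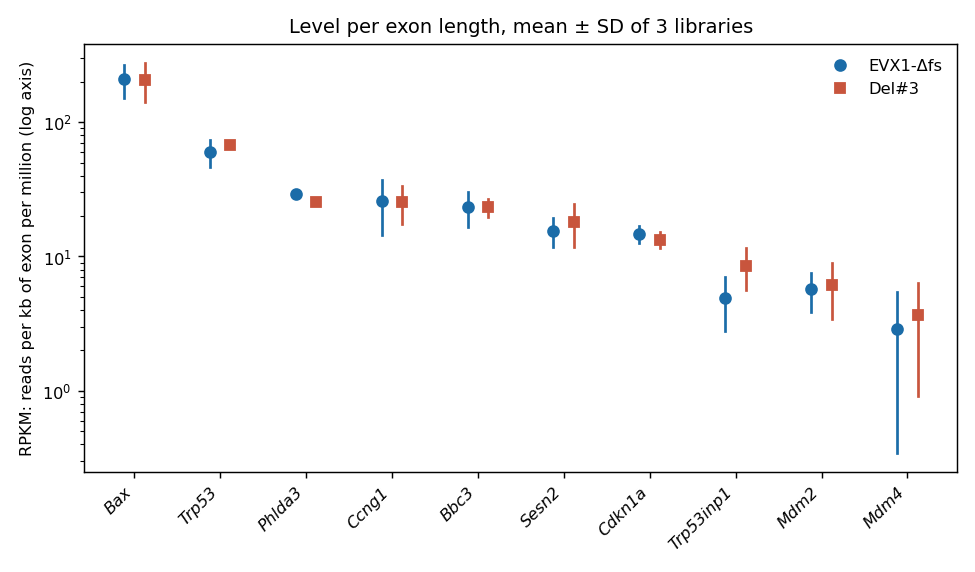
Level of each gene per exon length, in RPKM (log axis), as mean ± SD of 3 libraries for EVX1-Δfs (circles) and Del#3 (squares). *Bax* and *Trp53* lie above the other 8 genes and *Mdm4* is lowest, in both lines.

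Variation was split between the replicate number, which has 2 degrees of freedom and so takes a larger share by construction, and the line, which has 1. In the median gene of the 10, the replicate number held 80.5% of the sum of squares over the 6 libraries and the line 2.52%, beside 64.4% and 6.70% for the median of all genes tested. The line held the larger share for *Trp53inp1* (40.2% against 22.6%) and *Phlda3* (48.4% against 44.6%). An F test over the replicate numbers in limma, with the line in the model, called 1 of the 10 genes, *Mdm4* (adjusted p = 0.040), beside 4.24% of all genes tested. Unadjusted, 6 of the 10 had a p under 0.05, beside 27.7% of all. *Mdm4* fell by 2.22 on the log2 scale from replicate 1 to replicate 2, from a mean of 217 to 46.1 normalized counts over both lines. The next smallest adjusted p-values were 0.053 for *Bax* and 0.086 for *Mdm2*. Without 1 library at a time, the number of the 10 genes called ranged from 0, without EVX1-Δfs replicate 1, to 6, without EVX1-Δfs replicate 3 or Del#3 replicate 3. In these last settings the genes called of all tested rose as well, from 546 to 2401 and 3175. With TMM factors or total-read scaling it was 0. *Mdm4* was called in 9 of the 13 alternatives run for this test.

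The direction differed among the genes. *Mdm2*, *Mdm4* and *Ccng1* were higher in replicate 1 than in both other replicates of both lines, which is 3 of 10 genes, beside 27.9% of all. *Bax*, *Bbc3*, *Sesn2* and *Phlda3* were lower there, which is 4 of 10, beside 26.4% of all. The mean of *Bax* over both lines was 1859 normalized counts in replicate 1 and 3661 in replicate 2, 1.97-fold higher on the fitted scale. *Trp53*, *Cdkn1a* and *Trp53inp1* took neither course, with differences of 0.06, 0.07 and -0.75 from replicate 1 to 2. With 10 genes, neither share is particular to them beside those of all genes.

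GC content moved with these differences. The genes that were high in replicate 1 had exons with 45.1% (*Mdm2*), 43.0% (*Mdm4*) and 40.8% (*Ccng1*) GC, and those that were low had 61.8% (*Bax* and *Phlda3*), 64.6% (*Bbc3*) and 58.7% (*Sesn2*). *Trp53* had 52.8% and *Cdkn1a* 54.5%. *Trp53inp1* had the lowest GC content of the 10 (38.6%) but was not highest in replicate 1 of both lines. In EVX1-Δfs its replicate 3 (477 normalized counts) lay above replicate 1 (375). Over both lines its difference from replicate 1 to 2 was -0.75. Across 12130 genes with an annotated model the rank correlation of GC content with the difference of replicate 2 from replicate 1 was 0.484, and with that of replicate 3 it was 0.178. The same correlations with exon length were -0.331 and -0.32. In the fifth of genes with the least GC the median difference of replicate 2 from 1 was -0.74, and in the fifth with the most it was 0.28. After a loess correction for GC content and exon length, an alternative chosen after seeing the data, 0 of the 10 genes were called, beside 2.31% of all. *Mdm4* then fell by 1.62 from replicate 1 to 2 (adjusted p = 0.084), and *Ccng1* by 0.25. For the comparison of the lines the rank correlation with GC content was 0.0105.

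**Figure D4:**
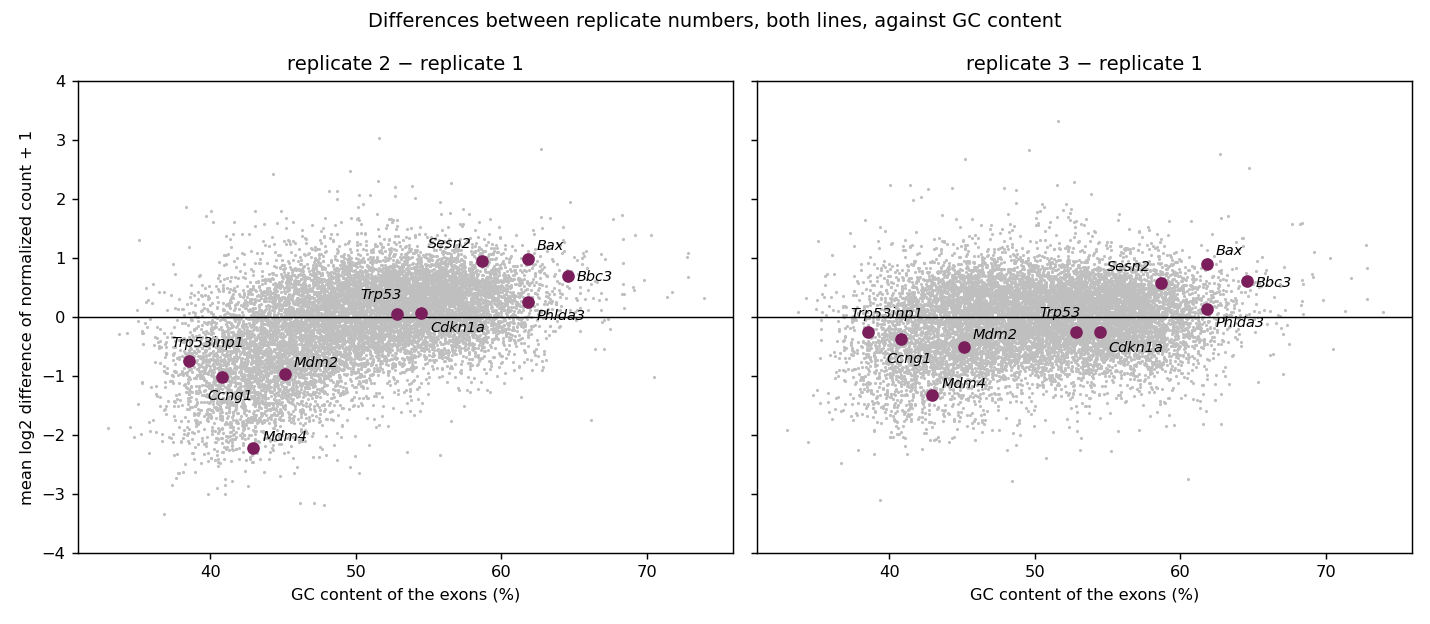
Mean log2 difference of normalized count + 1 between replicate numbers over both lines, against the GC content of a gene's exons in percent. Grey points are 12130 genes, and purple points the 10 genes. *Mdm4* (43.0% GC) lies below 0 and *Bax* (61.8%) above it in both panels, while *Trp53* and *Cdkn1a* lie near 0 on the left.

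Other genes of the pathway were taken as 8 lists of 94 genes, of which 87 passed the filter, and the relatives of p53. In the comparison of the lines 0 of the 87 were called, beside 0.0155% of all genes tested. An unadjusted p under 0.05 was found for 0 of the 87, beside 1.03% of all. With the block 0 of the 87 were called, beside 0.0233% of all genes tested. With it 4 had an unadjusted p under 0.05, beside 4.62% of all genes, namely *Atr*, *Chek1*, *Bub1* and *Top2a*. Among the 19 upstream kinases and regulators, the largest differences were those of *Atr* (log2 fold change 1.15, SE 0.54), *Atm* (0.85, SE 0.48) and *Chek1* (0.53, SE 0.32), the kinases that answer stalled forks and broken DNA. The list's median was -0.08. *Atr* and *Atm* were higher in Del#3 in 2 of 3 same-numbered pairs, and *Chek1* in 3 of 3. The GC content of these 3 kinases was 41.4% to 43.0%, and whether it bears on their differences was not tested. *Trp63* and *Trp73*, the relatives of p53, were low, with means of 18.1 and 55.9 normalized counts in EVX1-Δfs and 19.9 and 41.9 in Del#3.

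Among 10 tested growth arrest targets the median was -0.14, and the largest differences were those of *Ptprv* (0.81, SE 0.55), *Rprm* (0.56, SE 0.32) and *Zfp365* (-0.37, SE 0.33). Among 12 tested cell death targets the median was 0.03. *Perp* (-0.50, SE 0.30) encodes a desmosome protein that acts in p53-dependent death. *Eda2r* had 0.40 (SE 0.33) and *Siva1* -0.29 (SE 0.30). Among 5 tested repair genes the median was -0.14, with *Polk*, a translesion polymerase, at 0.63 (SE 0.63), *Pcna* at -0.27 (SE 0.26) and *Ddb2* at -0.15 (SE 0.28). None of these differences passed the test.

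Among 10 tested metabolic and redox targets the median was -0.05, with *Rps27l* at -0.51 (SE 0.37), *Sesn1*, a relative of *Sesn2*, at -0.47 (SE 0.34) and *Tigar*, listed as 9630033F20Rik, at -0.18 (SE 0.25). In the BCL-2 family the median of 12 tested genes was -0.01. Its largest differences were in genes of low counts, *Hrk* (0.81, SE 0.49), *Bcl2* (0.76, SE 0.53) and *Bik* (-0.69, SE 0.49), each at a mean below 20 in both lines. Of the other CDK inhibitors, *Cdkn1c* had 0.46 (SE 0.31), *Cdkn2d* -0.40 (SE 0.59) and *Cdkn1b* -0.02 (SE 0.25). The 16 mitotic genes that p21 represses through the DREAM complex had a median of 0.03. Those furthest from 0 were *Top2a* (0.73, SE 0.62), *Bub1* (0.72, SE 0.36) and *Cdc25c* (-0.30, SE 0.33). Over the replicate numbers, 5 of the 87 genes were called, which is 5.75% beside 4.24% of all genes: *Prkdc*, *Pmaip1*, *Polk*, *Gpx1* and *Top2a*. After the GC and length correction the adjusted p of limma was 0.028 for *Top2a*, and from 0.069 (*Gpx1*) to 0.18 (*Prkdc*) for the other 4, which were no longer called. *Gpx1*, of 56.2% GC, rose by 1.19 from replicate 1 to 2, while the other 4 had 41.7% to 43.4% GC and were lower in replicate 2.

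**Figure D5:**
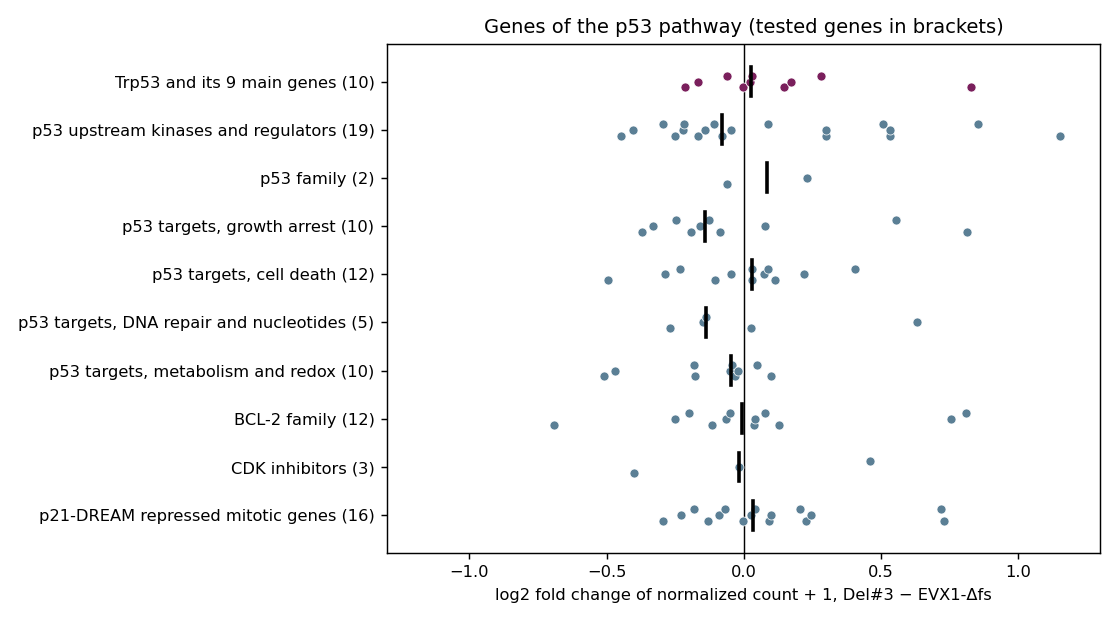
Log2 fold change of normalized count + 1, Del#3 minus EVX1-Δfs, for the 10 genes and for each list of p53 pathway genes, with 3 libraries per line. Points are genes, vertical bars are medians, and the number of tested genes is in brackets. The medians lie between -0.14 and 0.08, and no gene shown passed the test.

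The genes whose pattern over the 6 libraries was most like that of 3 of the genes were found by the root mean square distance of centred log2 values among 12890 others. For *Trp53* they were *Hs1bp3* (0.0437), *Ap1g2* (0.0524) and *Ptprn* (0.0549). For *Cdkn1a* they were *Rundc1* (0.046), *Rabggta* (0.0494) and *Uba7* (0.0506). For *Mdm2*, *Zfp454* (0.047) and *Zmynd11* (0.0582) are given. None of these 8 genes is on the lists above. With only 6 libraries, such likeness is a description only.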

How the data were processed

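The authors made poly(A)-selected libraries, sequenced them on an Ion Proton, and mapped the reads to mm9, first by TopHat2 and after that by TMAP. HTSeq at default settings gave the counts per gene. The submitters' processing notes also name DESeq2. The deposited signal values are counts divided by a size factor per library. In every library 100% of the values came out as whole reads (within 0.1 read), so the reads were recovered by dividing by the step. The 15266 listed genes had 9024579 to 15699124 reads per library. Reads are not independent molecules, and 3 libraries per line set the precision.

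The lines were compared with limma (version 3.58.1, R 4.3.3, eBayes with trend) on log2(normalized count + 1), so fold changes of low genes are understated. Genes passed filterByExpr of edgeR (version 4.0.16) with a minimum count of 10, which left 12891. All 6 libraries entered with no covariate, with Benjamini-Hochberg adjusted p-values and a threshold of 0.05. The replicate numbers were compared with a limma F test with the line as covariate. The series design puts each side by side differentiation on its own day, and the replicate numbers were read as those days. Same-numbered libraries deviated together in replicates 1 and 2 but not in replicate 3 (correlations 0.738, 0.317 and -0.053), so the block was used as an alternative. The tests were tested on simulated data. The simulated counts had the same dispersion for every gene, so they do not show how the tests behave on these libraries.

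The 10 genes and the pathway lists were chosen with earlier results of these data known. From each list the 3 genes with the largest differences are named. For *Trp53*, *Cdkn1a* and *Mdm2* the 3 genes most alike over the 6 libraries are named, of which 1 is not reported here. Exon length, GC content and positions are from the GENCODE annotation of NCBIM37, and guides were read from the study's supplementary table. Qualifying p53 matches were searched on that assembly. In that annotation no exon of the 10 genes overlaps an exon of another gene.

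Alternatives were edgeR's quasi-likelihood test, DESeq2 (version 1.42.0), the replicate block, pseudocounts of 0.1 and 5, no filter on low values or a filter of 10 reads in each library, TMM factors or total-read scaling, an adjusted p under 0.1, and leaving out each library. A loess correction for GC content and exon length (span 0.3) was added after seeing the data.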

Additional observations from a re-analysis of the deposited data

How the results depend on the processing

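In the comparison of the lines, 0 of the 10 genes were called under any alternative run. Of all genes tested only 2 or 3 were called in each, so 0 of 10 is not particular to these genes. *Cdkn1a*, *Phlda3* and *Trp53inp1* kept their direction throughout. The sign of small differences did not hold: *Ccng1* had a log2 fold change of -0.0668 with DESeq2, -0.0383 with edgeR and -0.153 with the replicate block and the GC and length correction, and *Bbc3* had 0.0188 with the replicate block in edgeR, 0.0135 with TMM factors and 0.0313 with total-read scaling. Without 1 library at a time the log2 fold change ranged from -0.00185 to 0.263 for *Trp53*, -0.236 to 0.327 for *Mdm2*, -0.254 to 0.955 for *Mdm4*, -0.343 to 0.283 for *Bax*, -0.259 to 0.187 for *Bbc3*, -0.402 to 0.296 for *Ccng1* -0.119 to 0.519 for *Sesn2*, 0.401 to 1.13 for *Trp53inp1*, -0.264 to -0.0526 (without Del#3 replicate 3) for *Cdkn1a* and -0.303 to -0.128 for *Phlda3*. The replicate block changed no call of the 10 genes in the comparison of the lines.

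Between replicate numbers, 546 genes were called. The number was 641 with a pseudocount of 5, 347 with TMM factors, 317 with total-read scaling, 280 after the GC and length correction, and 197 to 3175 without 1 library. Of the 10 genes 1 was called. The number was 2 with a pseudocount of 5, 0 with TMM factors, total-read scaling or the correction, and 0 to 6 without 1 library. Leaving out a library leaves 1 replicate number with 1 library, which is assumed to vary like the others. The cause of these shifts was not tested. *Mdm4* had the fewest reads of the 10 genes, 35 to 322 per library.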
